A study of Drosophila melanogaster with 216 samples.

Results

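The metallothionein genes of Drosophila melanogaster with a probe set of their own on the Affymetrix Drosophila 2.0 array are MtnA, MtnB, MtnC and MtnD. No measured value entered the rule, but the family was chosen from genes whose levels in these arrays were already known. A probe set belonged to the family when the platform annotation paired it with 1 of these 4 genes and with no other gene. This gave 4 genes of 11982 with a probe set of their own, and 4 probe sets (1632873_at for MtnA, 1630291_at for MtnB, 1628446_at for MtnC and 1631962_at for MtnD) of 18769 tested. The further family member MtnE had no probe set paired with it alone and was not analysed here. In the RefSeq gene table of Release 6 plus ISO1 MT, all 5 genes lie on chromosome arm 3R, and MtnD and MtnE neighbour each other.

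Metallothioneins are small proteins rich in cysteine that bind copper, zinc and cadmium through their sulphur groups. In Drosophila their transcription is switched on by the metal-responsive transcription factor MTF-1, which binds metal response elements in their promoters, and much of their expression lies in the gut, where dietary metals enter the body. MtnA is the member best known for its part in copper handling and MtnB for its part in cadmium handling, while lesser parts are ascribed to MtnC and MtnD.

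The study asked how diet during development and diet in adulthood shape the transcriptome of ageing flies. Larvae of a laboratory stock population (S) were raised on 1SY, with 70 g yeast and 100 g sugar per litre, or on food with 0.25 or 2.5 times as much of both (0.25SY and 2.5SY), and adults were kept on each of the same 3 diets in every combination. RNA came from whole bodies of virgin females and virgin males at 1 day after eclosion, at middle age (when 10% of the cohort had died) and at old age (90%), with 5 flies pooled per array and 4 arrays in each of the 54 groups, 216 arrays in all. The labels give the amounts in this way, while the study's text also gives them with yeast and sugar exchanged. The labels name no transgene, mutation or drug, and the diets differed in amount of yeast and sugar together. The pools of a group came from 1 cohort, so all p-values below measure the spread between pools. Middle and old age were set by the mortality of each treatment cohort, and the labels give no days of age for them. The paper reports that virgin lifespan differed with adult and larval diet. A difference between diets at these ages thus cannot be told apart from one in days of age. Days of age may also differ between the sexes. In whole bodies, fewer cells of a type and less RNA per cell cannot be told apart.

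Values are log2 intensities made by the authors with RMA, which corrects background, brings all arrays to 1 distribution and combines the probes of a set. Arrays have no read depth, and a difference of 1 is a 2-fold difference. A call is an adjusted p under 0.05 in limma, adjusted over all 18769 probe sets. Before the results, 3 old male arrays have to be set apart. Old male larval 0.25SY adult 2.5SY replicate 1 carried a female profile, with a testis marker mean of 5.22 where the 33 undoubted old male arrays lay between 11.67 and 12.42. Old male larval 1SY adult 0.25SY replicate 1 lay at 10.96 for testis and at 9.33 for ovary and yolk genes, where those 33 arrays ended at 9.11. Old male larval 0.25SY adult 1SY replicate 3 correlated more closely with the 1-day-old males (r = 0.998) than with its own group (r = 0.971), and its MtnA value of 14.21 was the lowest of all old males. Results on old males that rest on these arrays are given with and without them.

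MtnA was among the brightest probe sets of the array, 16th of 18769 by its mean, and lay a median of 0.28 below the highest value of its array. It stood in the top 20 on 129 of 216 arrays. Whether its differences were compressed near that upper end was not tested. The means of MtnC, MtnD and MtnB ranked 617, 1878 and 6809.

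In 1-day-old females all 4 transcripts were higher after larval life on 0.25SY than after 1SY. MtnA lay at 14.17, 14.28 and 14.51 (lowest, median and highest of 12 arrays) after larval 0.25SY and at 12.92, 13.46 and 13.78 after 1SY. The lowest array of the poor larval diet thus stood above the highest of the standard diet, and the difference was −0.89 (SE 0.08, 1.85-fold lower on 1SY, limma adjusted p = 3.01e-10).

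MtnD gave the widest gap of the 4 in females. It lay at 9.70, 10.61 and 11.32 after larval 0.25SY and at 7.29, 8.35 and 9.40 after 1SY, again with no shared range, a difference of −2.11 (SE 0.24, 4.32-fold, limma adjusted p = 8.4e-09). MtnC lay at 11.60, 12.27 and 12.69 against 10.55, 10.98 and 11.30, a difference of −1.32 (SE 0.11, 2.5-fold, limma adjusted p = 8.49e-11), with no overlap. MtnB lay at 7.96, 8.71 and 8.98 against 6.91, 7.76 and 8.31, where the groups overlapped, a difference of −0.97 (SE 0.17, 1.95-fold, limma adjusted p = 1.56e-05). So 4 of 4 members fell from larval 0.25SY to 1SY, beside 19.5% of all probe sets called lower, and 3 of 4 had arrays that did not overlap, beside 9.54% of all probe sets. The median difference of the members was −1.15, beside 0.02 over all probe sets.

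Females raised on the rich diet also lay below those raised on 0.25SY. Against larval 0.25SY, 2.5SY gave −1.04 for MtnA (SE 0.08, 2.06-fold lower), −0.96 for MtnB (SE 0.17, 1.94-fold), −1.01 for MtnC (SE 0.11, 2.01-fold) and −1.54 for MtnD (SE 0.24, 2.91-fold), with limma adjusted p between 8.31e-10 and 8.71e-05. All 4 were called lower, beside 13.7% of all probe sets, and MtnA, at 12.71, 13.28 and 13.70 on 2.5SY, was again without overlap (0.794% of all probe sets). Between 2.5SY and 1SY only MtnC was called, 0.32 higher on 2.5SY (SE 0.11, limma adjusted p = 0.037, beside 6.76% called higher), a call lost when any 1 of the 4 replicate numbers was left out. MtnD was 0.57 higher there without a call (limma adjusted p = 0.0895). On 2.5SY 1 array stood above its group: larval 2.5SY adult 2.5SY replicate 1 lay at 8.60 for MtnB, where the other 3 arrays lay between 7.22 and 7.43, and at 10.67 for MtnD against 8.34 to 8.57. Without that array, the 2.5SY to 0.25SY difference of MtnD was −1.73. Between 2.5SY and 1SY MtnC was then not called (0.29, limma adjusted p = 0.0717) and MtnA was called lower on 2.5SY (−0.22, limma adjusted p = 0.0195), as it was with arrays centred on their medians (−0.21, limma adjusted p = 0.0423).

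In 1-day-old males the same direction held, with smaller differences for 3 of the 4. MtnA lay at 14.46, 14.58 and 14.77 after larval 0.25SY, at 13.98, 14.11 and 14.21 after 1SY and at 13.72, 13.82 and 14.05 after 2.5SY. The arrays of 0.25SY shared no value range with either richer diet, and the step from 0.25SY was −0.48 to 1SY (SE 0.04, 1.39-fold, limma adjusted p = 2.14e-10) and −0.72 to 2.5SY (SE 0.04, 1.64-fold, limma adjusted p = 2.57e-15). MtnA also fell from 1SY to 2.5SY in males (−0.24, SE 0.04, limma adjusted p = 0.00125, beside 0.0746% called lower) and no other member was called. Across all 3 larval diets, MtnA had the smallest p of all 18769 probe sets in 1-day-old males (F = 216, limma adjusted p = 1.03e-14). It ranked 11th in females.

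MtnC in males lay at 12.54, 12.84 and 12.96 after larval 0.25SY, above 11.55, 12.15 and 12.47 after 1SY with no overlap (−0.69, SE 0.09, 1.61-fold, limma adjusted p = 2.95e-06). MtnB lay at 7.68, 8.50 and 9.43 against 6.87, 7.37 and 8.33, overlapping, and differed by −1.04 (SE 0.17, 2.06-fold, limma adjusted p = 0.000126). MtnD overlapped as well, at 10.42, 10.78 and 11.65 against 8.63, 10.21 and 11.17 (−0.82, SE 0.20, 1.77-fold, limma adjusted p = 0.00903), and its adjusted p rose to 0.0728 and 0.0941 without replicate 2 and replicate 4. All 4 members were called lower on 1SY, beside 3.44% of all probe sets, and 2 of 4 did not overlap, beside 0.128%. The members' median difference was −0.76, beside −0.01 over all probe sets. From 0.25SY to 2.5SY, MtnA, MtnC (−0.63, SE 0.09) and MtnD (−0.76, SE 0.20, limma adjusted p = 0.0192) fell, beside 3.59% called lower. MtnB differed by −0.52 (SE 0.17, limma adjusted p = 0.0642).

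**Figure D1:**
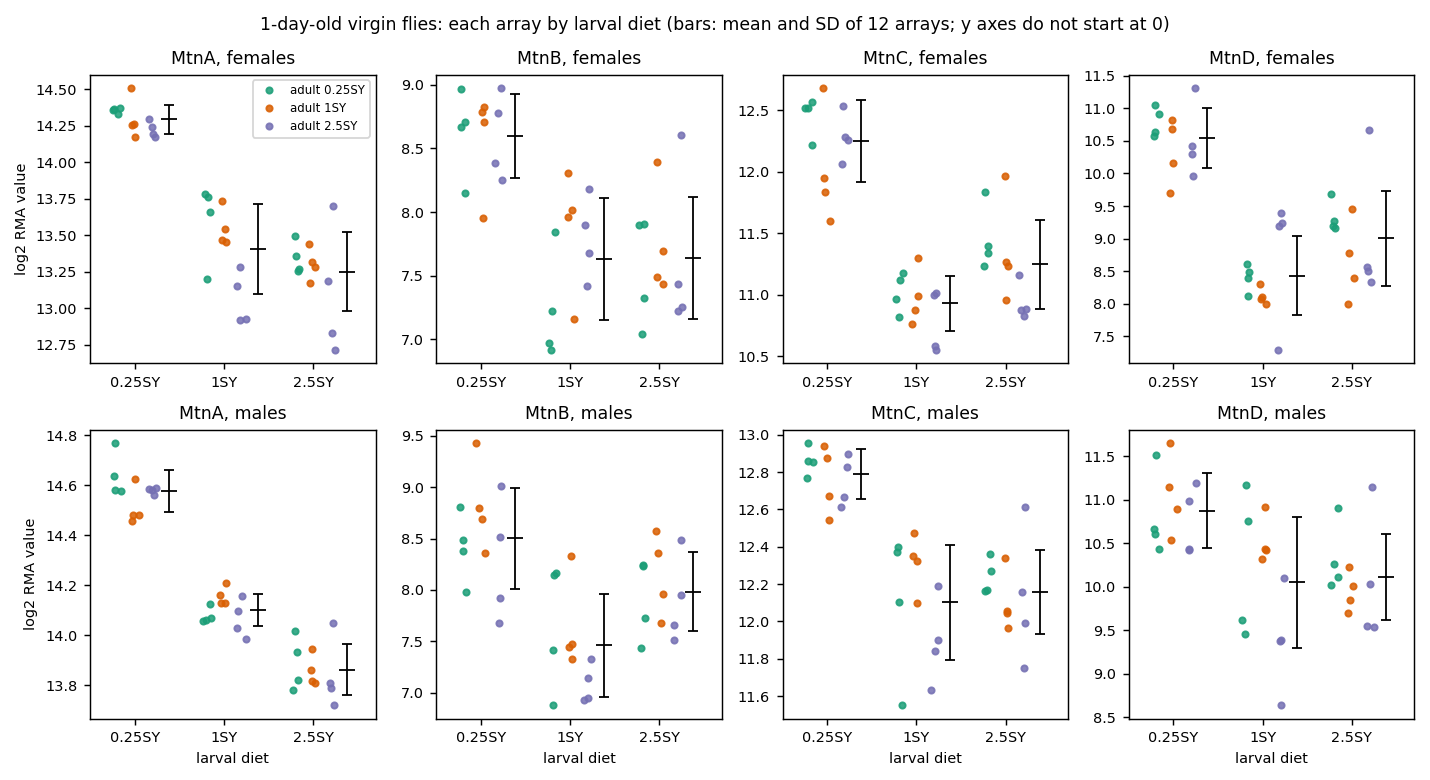
Log2 RMA value (y axis, not starting at 0) of each metallothionein in 1-day-old virgin females (top) and males (bottom) by larval diet (x axis). Each point is 1 array coloured by adult diet, and the bars are the mean and SD of the 12 arrays of a larval diet, with MtnA means of 14.29, 13.41 and 13.25 in females and 14.58, 14.10 and 13.86 in males.

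Whether larval diet acted differently in the 2 sexes was tested directly. The fall from 0.25SY to 1SY was smaller in males by 0.41 for MtnA (SE 0.07, limma adjusted p = 2.17e-06), by 0.64 for MtnC (SE 0.18, limma adjusted p = 0.00244) and by 1.29 for MtnD (SE 0.31, limma adjusted p = 0.000532), while for MtnB the male minus female difference was −0.08 (SE 0.37, limma adjusted p = 0.929). In the test over all larval diets 3 of 4 members were called, beside 24.3% of all probe sets. Larval diet by adult diet was called for no member at 1 day in either sex by limma, nor for any of the 18769 probe sets (0%), and none of the 4 had an unadjusted p under 0.05 (the smallest were 0.135 in females and 0.116 in males).

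Lists of genes known from single organs moved with the same contrast, and their part in it was not tested. The fat body list (6 of its 7 genes measured) averaged 9.11, 9.93 and 9.75 in females and 9.71, 11.32 and 10.81 in males on larval 0.25SY, 1SY and 2.5SY. From 0.25SY to 1SY, 3 of its 6 genes were called higher and 1 lower in females and 4 were called higher in males, led by the larval fat body genes Fbp1 (2.02 in females, 3.74 in males) and Fbp2 (2.50 and 3.88) and by the storage protein gene Lsp2 (0.88 and 1.57). The Malpighian tubule list averaged 9.13, 8.81 and 8.85 in females and 9.42, 9.32 and 9.38 in males, with 6 and 2 of 7 genes called lower on 1SY. Of 17 midgut peptidases 13 were called lower in females, and 11 lower and 1 higher (Jon99Ci, 0.36) in males, with list medians of −0.18 and −0.23. The ovary and yolk list averaged 13.77, 14.03 and 14.08 in females, with 6 of 12 genes called higher on 1SY and none lower. Of the 5 measured copper cell and iron cell genes of the midgut, 2 were called higher and 2 lower in females and 1 higher in males. Flight muscle genes were called lower in 6 of 6 in females and in 0 of 6 in males. Of all probe sets, 19.5% in females and 3.44% in males were called lower in this contrast, and the shares called higher are not given here.

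At middle age the larval diets lay closer together. MtnA then lay close to the array maximum, and whether this compressed its larval differences was not tested. In females its mean by larval diet (0.25SY, 1SY and 2.5SY) went from 14.29 ± 0.10, 13.41 ± 0.31 and 13.25 ± 0.27 (SD, n = 12) at 1 day to 14.65 ± 0.16, 14.55 ± 0.23 and 14.62 ± 0.17 at middle age. In males it went from 14.58 ± 0.08, 14.10 ± 0.06 and 13.86 ± 0.10 to 14.83 ± 0.06, 14.73 ± 0.09 and 14.71 ± 0.09. The change of the larval effect between 1 day and middle age had the smallest p of all 18769 probe sets for MtnA in both sexes (F = 81.9 in females, limma adjusted p = 3.01e-16, and F = 71.5 in males, limma adjusted p = 1.42e-14). In females all 4 members were called in this test (MtnB 0.00106, MtnC 0.000457 and MtnD 1.58e-05 as limma adjusted p), beside 20.5% of all probe sets. In males MtnA alone was called, beside 0.160%, and MtnB, MtnC and MtnD had limma adjusted p of 0.273, 0.19 and 0.455. With array quality weights all 4 were called in males.

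Females raised on the 2 richer diets rose after the first day. From 1 day to middle age, females of larval 1SY rose by 1.14 for MtnA (2.21-fold), 0.90 for MtnB, 0.68 for MtnC and 1.96 for MtnD (3.89-fold), and females of larval 2.5SY by 1.37, 0.65, 0.44 and 1.47. All 8 differences were called by limma, beside 21.4% and 22.1% of probe sets called higher. In females of larval 0.25SY, MtnA rose by 0.35 (beside 17.4% called higher) and MtnB fell by 0.66 (limma adjusted p = 0.0243, beside 14.0% called lower), and the differences of MtnC (−0.29, limma adjusted p = 0.0895) and MtnD (0.10, limma adjusted p = 0.766) were not called. Males showed MtnA rises of 0.25, 0.63 and 0.85 after larval 0.25SY, 1SY and 2.5SY, and MtnD rises of 1.25 and 1.35 after the 2 richer diets, beside 30.4%, 32.7% and 33.3% of probe sets called higher.

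**Figure D2:**
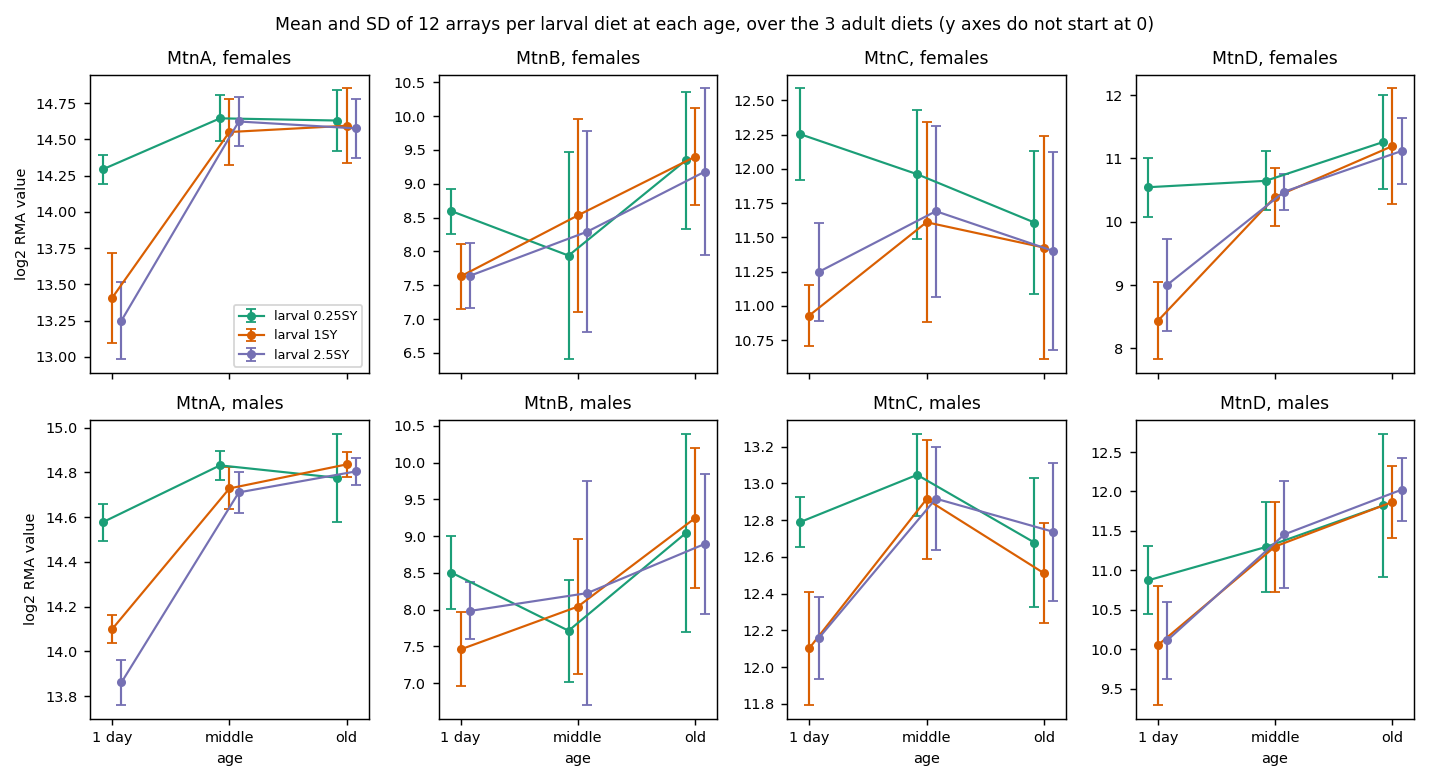
Mean log2 RMA value and SD of 12 arrays (y axis, not starting at 0) per larval diet at 1 day, middle age and old age (x axis), over the 3 adult diets, for each metallothionein in females (top) and males (bottom). The larval diets lie apart at 1 day and close together later, as for MtnD in females at 10.54, 8.43 and 9.00 at 1 day and 10.65, 10.39 and 10.48 at middle age.

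In the 72 arrays per sex of middle-aged and old flies, no member was called for larval diet by limma. In females the larval F-test gave limma adjusted p of 0.397 or more (0.0639% of probe sets called), with MtnC alone under 0.05 before adjustment. In males it gave 0.66 or more (0.272% called), with none under 0.05 before adjustment. The differences from 0.25SY to 1SY were −0.07, 0.32, −0.27 and −0.16 in females and −0.02, 0.27, −0.15 and 0.03 in males for MtnA, MtnB, MtnC and MtnD. Larval diet by adult diet was called for no member by limma at these ages (3.60% of all probe sets in females, 0.0213% in males), with MtnA, MtnB and MtnC in females and MtnC in males under 0.05 before adjustment. For MtnA in males the larval result rested on the doubted arrays: without the 3 of them it was called for larval diet (F = 8.37, limma adjusted p = 0.0287), with a 2.5SY to 0.25SY difference of −0.07.

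Adult diet was called for all 4 genes in middle-aged and old females (56.2% of all probe sets), and not all members had the same profile. MtnB was highest on 2.5SY. At middle age it lay at 5.68, 6.38 and 10.08 (lowest, median and highest of 12 arrays) on adult 0.25SY, at 7.56, 8.39 and 9.10 on 1SY and at 8.95, 9.61 and 10.51 on 2.5SY. The top value on 0.25SY was a single array, larval 1SY adult 0.25SY replicate 2 at 10.08, where the other 3 of its group lay between 5.96 and 6.80. The rise from 0.25SY to 2.5SY was 3.04 at middle age (SE 0.26, 8.23-fold, limma adjusted p = 3.44e-14, beside 25.4% called higher) and 1.81 at old age (SE 0.26, 3.5-fold, limma adjusted p = 2.34e-07, beside 6.55% called higher), where the 12 arrays lay at 7.25, 8.57 and 10.09 on 0.25SY, 8.22, 8.98 and 9.71 on 1SY and 9.66, 10.19 and 11.37 on 2.5SY. The step from 0.25SY to 1SY was 1.76 at middle age (SE 0.26, limma adjusted p = 4.74e-08) and 0.51 at old age without a call (SE 0.26, limma adjusted p = 0.117), and that from 1SY to 2.5SY was called at both ages (1.28 and 1.30).

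MtnA and MtnC were lowest on 1SY, as was MtnD over both ages. In old females MtnA lay at 14.72, 14.80 and 14.95 on 0.25SY, at 14.14, 14.37 and 14.55 on 1SY and at 14.47, 14.64 and 14.83 on 2.5SY. The 0.25SY and 1SY arrays did not overlap (1.41% of all probe sets). Over both ages MtnA fell by 0.40 from 0.25SY to 1SY (SE 0.03, limma adjusted p = 2.28e-16) and rose by 0.24 from 1SY to 2.5SY (SE 0.03, limma adjusted p = 2.06e-08). MtnC fell by 0.78 (SE 0.10, 1.71-fold, limma adjusted p = 1.5e-09) and then rose by 1.25 (SE 0.10, limma adjusted p = 4.73e-14), so that it ended 0.47 above 0.25SY. At middle age MtnC lay at 11.34, 11.73 and 12.001 on 0.25SY, 10.12, 11.16 and 11.75 on 1SY and 11.89, 12.46 and 12.79 on 2.5SY, with no overlap between 1SY and 2.5SY (0.117% of all probe sets).

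Over both ages MtnD, like MtnA, was highest on 0.25SY and lowest on 1SY, and above all in old females. There it lay at 11.04, 12.14 and 12.58 on 0.25SY, 10.04, 10.53 and 11.72 on 1SY and 10.34, 11.02 and 12.004 on 2.5SY. Its fall from 0.25SY to 1SY was 1.22 at old age (SE 0.18, 2.33-fold, limma adjusted p = 6.48e-07, beside 17.4% called lower). At middle age the difference was −0.29 (SE 0.18, limma adjusted p = 0.196). Over both ages it was 0.33 higher on 2.5SY than on 1SY (SE 0.13, limma adjusted p = 0.0467), a call lost in the unmoderated ANOVA (0.0542) and with arrays centred on their medians (0.0705).

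From adult 0.25SY to 1SY 1 member was called higher and 3 lower in females, beside 27.8% and 25.0% of all probe sets, and from 1SY to 2.5SY all 4 were called higher, beside 15.5%. From 0.25SY to 2.5SY 2 were called higher and 2 lower (26.0% and 19.1%). The members' median difference was −0.58, 0.79 and 0.15 in these 3 contrasts, where that of all probe sets was 0.00, −0.01 and 0.00. The members' calls are to be read against these shares. The share was lower for 1SY to 2.5SY in middle-aged females, where 2.29% of probe sets were called higher and MtnA (0.21), MtnB (1.28) and MtnC (1.28) were among them.

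**Figure D3:**
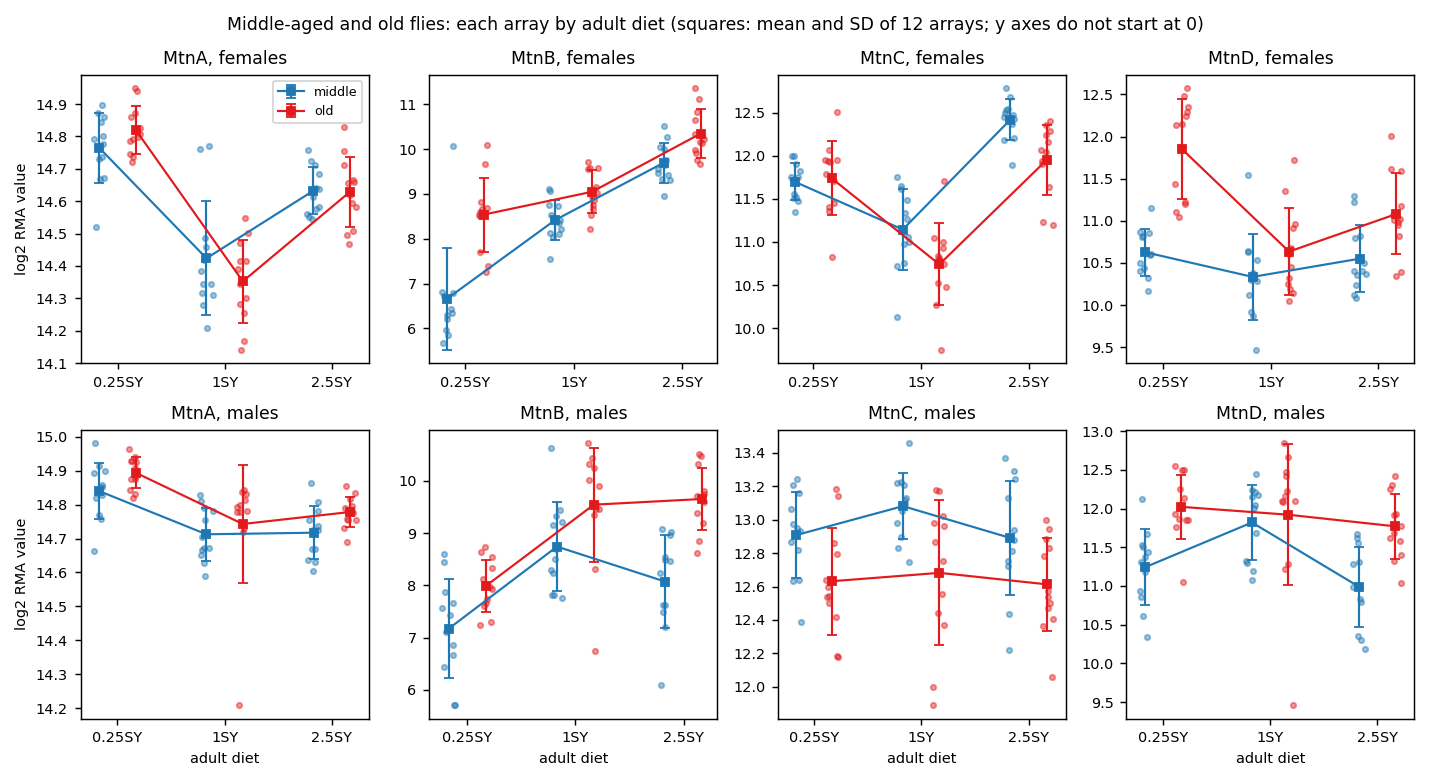
Log2 RMA value (y axis, not starting at 0) of each array of middle-aged (blue) and old (red) flies by adult diet (x axis), for each metallothionein in females (top) and males (bottom). Squares and bars are the mean and SD of 12 arrays. MtnB in females is highest on 2.5SY, MtnA and MtnC in females dip on 1SY, and the low male point on 1SY at 14.21 for MtnA is the old array with the profile of 1-day-old males.

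In middle-aged and old males adult diet was called for MtnA and MtnB only, beside 13.7% of all probe sets. The result for MtnD (F = 4.56, limma adjusted p = 0.0864) rested on the doubted arrays. Without the 3 of them adult diet was called for MtnD too (F = 9.73, limma adjusted p = 0.00232). It was also called for MtnD with array quality weights (limma adjusted p = 0.00385) and without replicate 3 (0.034). MtnB rose from 0.25SY to 1SY by 1.57 (SE 0.22, 2.96-fold, limma adjusted p = 5.06e-07) and from 0.25SY to 2.5SY by 1.29 (SE 0.22, 2.44-fold, limma adjusted p = 2.11e-05), beside 4.37% and 7.14% of probe sets called higher. In old males it lay at 7.25, 7.95 and 8.73 on 0.25SY, 6.74, 9.73 and 10.73 on 1SY and 8.62, 9.67 and 10.52 on 2.5SY. The value of 6.74 came from the array with the profile of 1-day-old males. Without the 3 doubted arrays the MtnB differences were 1.68 and 1.24.

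MtnA in males was lower on both richer adult diets, by 0.14 on 1SY (SE 0.03, limma adjusted p = 0.000112, beside 3.91% called lower) and by 0.12 on 2.5SY (SE 0.03, limma adjusted p = 0.00079, beside 4.48%). Without the doubted arrays both differences were −0.12. Centring each array on its median took the second below the threshold (limma adjusted p = 0.137). MtnC differed by 0.11 and −0.02 and MtnD by 0.24 and −0.25 against 0.25SY in males, none of them called. No member was called between 1SY and 2.5SY in males by limma (2.37% of probe sets called), although MtnD was lower by 0.49 on 2.5SY (limma adjusted p = 0.0968). This call also rested on the doubted arrays, since MtnD passed without them (−0.57, limma adjusted p = 0.00424).

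The sexes differed in these responses when tested. Adult diet by sex was called for all 4 members at middle age and at old age, beside 41.7% and 43.8% of all probe sets. In the step from 1SY to 2.5SY, the male minus female difference for MtnC was −1.47 at middle age (limma adjusted p = 1.84e-10) and −1.28 at old age (limma adjusted p = 3.95e-09). For MtnB it was −1.95 at middle age (limma adjusted p = 0.00028) and −1.19 at old age (limma adjusted p = 0.007). In the step from 0.25SY to 1SY, the male minus female difference was 0.21 and 0.32 for MtnA at the 2 ages (limma adjusted p = 0.00676 and 0.000135) and 0.87 and 1.12 for MtnD (limma adjusted p = 0.0145 and 0.00244). In males MtnD itself differed by 0.58 at middle age (limma adjusted p = 0.125) and by −0.10 at old age (limma adjusted p = 0.971), neither called. The middle-aged test was called for 2 members in place of 4 without replicate 4.

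**Figure D4:**
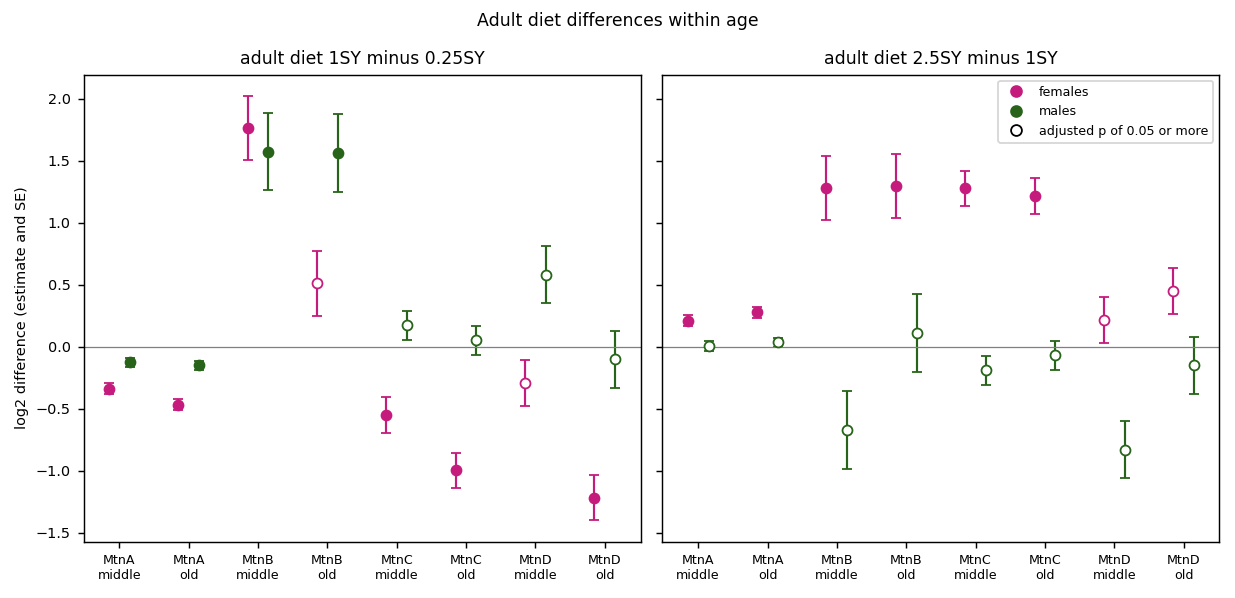
Log2 difference between adult diets (y axis, limma estimate and SE) for each metallothionein at middle and old age (x axis), 1SY minus 0.25SY on the left and 2.5SY minus 1SY on the right. Females are pink and males green, and open symbols have an adjusted p of 0.05 or more. At middle age MtnC lies at −0.55 on the left and 1.28 on the right in females, and at 0.17 and −0.19 in males.

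Within females the response to adult diet also differed between the 2 ages for MtnB (F = 7.6, limma adjusted p = 0.00835) and MtnD (F = 6.85, limma adjusted p = 0.0128), 2 of 4 members beside 27% of all probe sets. From 0.25SY to 1SY the difference shifted from middle to old age by −1.25 for MtnB and by −0.93 for MtnD. Without replicate 1 or replicate 3 neither member was called, and with blocks of the running sample numbers 1 was. In males no member was called by limma (0.256% of all probe sets), and none had an unadjusted p under 0.05, the smallest being 0.0615 for MtnD.

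Organ markers moved with adult diet in females as well, and their part in the values above was not tested. The ovary and yolk list averaged 10.38, 13.45 and 12.01 on adult 0.25SY, 1SY and 2.5SY at middle age and 11.72, 13.24 and 10.51 at old age. All 12 of its measured genes were called higher from 0.25SY to 1SY, beside 27.8% of all probe sets. From 1SY to 2.5SY all 12 were called lower, where the share of all probe sets called lower is not given here. This course of the ovary and yolk list was the reverse of that of MtnA, MtnC and, over both ages, MtnD. The Malpighian tubule list had its lowest mean on 1SY at both ages (9.27 and 9.00). Of its genes, 4 of 7 were called lower from 0.25SY to 1SY (25.0% of all probe sets) and 6 of 7 higher from 1SY to 2.5SY (15.5%). In males 11 of 17 midgut peptidases were called lower on 1SY and 9 of 17 on 2.5SY, beside 3.91% and 4.48% of all probe sets, while MtnB was called higher.

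At 1 day, when adults had been on their diet for the shortest time, adult diet was called for MtnA in females alone. It was lower on 2.5SY than on 0.25SY by 0.30 (SE 0.08, limma adjusted p = 0.0239, beside 3.73% called lower), and the call was lost without replicate 2, 3 or 4. MtnB, which spanned 3.04 between these diets in middle-aged females, differed by 0.21 (SE 0.17, limma adjusted p = 0.572) in 1-day-old females, and the change between the ages was 2.84 (SE 0.34, limma adjusted p = 6.83e-10, beside 20.7% called higher). In 1-day-old males no member was called for adult diet by limma (2.14% of all probe sets), where MtnB had an unadjusted limma p of 0.0477 and the others 0.0721 or more.

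Age moved the family in 2 steps. From 1 day to middle age MtnA rose by 0.96 in females and 0.58 in males, MtnC by 0.28 and 0.61 and MtnD by 1.18 and 1.01, each called by limma. MtnB differed by 0.30 in females (limma adjusted p = 0.0521) and by 0.01 in males (limma adjusted p = 0.954). So 3 of 4 members were called higher in each sex, beside 25.7% of all probe sets in females and 37.6% in males. MtnB hid opposite courses in females, since it fell by 1.15 on adult 0.25SY (2.22-fold, limma adjusted p = 1.87e-05, beside 28.1% called lower) and rose by 1.69 on adult 2.5SY (3.22-fold, limma adjusted p = 4.4e-09, beside 20.0% called higher). Males shared its fall on 0.25SY (fell by 0.82, limma adjusted p = 0.00817, beside 25.5% called lower).

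From middle to old age MtnB and MtnD rose in both sexes. MtnB rose by 1.05 in females (SE 0.15, 2.08-fold, limma adjusted p = 3.98e-08) and by 1.07 in males (SE 0.18, 2.09-fold, limma adjusted p = 2.1e-06). MtnD rose by 0.69 (SE 0.11, 1.61-fold, limma adjusted p = 2.84e-07) and by 0.55 (SE 0.13, 1.47-fold, limma adjusted p = 0.000529). MtnC fell by 0.28 (limma adjusted p = 0.00458) and by 0.32 (limma adjusted p = 0.000108), and MtnA stayed within 0.05 of its middle-aged level in both sexes without a call. Thus 2 members were called higher and 1 lower in each sex, beside 24.2% and 21.1% of all probe sets in females and 22.7% and 18.5% in males. The fall of MtnC in females was not called without replicate 1 (−0.17, limma adjusted p = 0.0896). Without the 3 doubted arrays, the male differences were 1.17 for MtnB, 0.69 for MtnD and −0.28 for MtnC, and MtnA then passed with a rise of 0.07 (limma adjusted p = 0.000137). With all arrays kept, its limma adjusted p was 0.0614. It then passed with repeated quantile normalization (0.0131), array weights (1.96e-05), blocks of sample numbers (0.0169), a fit of all 3 ages (0.0454) and in the unmoderated ANOVA (0.0479).

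In females on the poor adult diet MtnB and MtnD had age steps of 1.88 (3.69-fold, limma adjusted p = 2.81e-08) and 1.23 (2.34-fold, limma adjusted p = 1.9e-07), beside 24.1% called higher. On 1SY and 2.5SY the MtnB differences were 0.63 and 0.65, neither called (limma adjusted p = 0.081 and 0.0885). The male minus female difference of the old minus middle step was 0.06, 0.01, −0.04 and −0.13 for MtnA, MtnB, MtnC and MtnD, none called by limma beside 28.9% of all probe sets, and none with an unadjusted p under 0.05. Over the same step 17 of 17 midgut peptidases were called lower in females and 14 of 17 in males, beside 21.1% and 18.5% of all probe sets. From 1 day to middle age 6 of 6 flight muscle genes were called lower in both sexes, where the share of all probe sets called lower is not given here. Their part in the age differences was not tested.

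The levels by sex and age can be put in order for each gene. MtnA in females averaged 13.65 ± 0.52, 14.61 ± 0.19 and 14.60 ± 0.22 (SD, n = 36) at 1 day, middle age and old age, and in males 14.18 ± 0.31, 14.76 ± 0.10 and 14.81 ± 0.12, so that 1 day was lowest and the 2 later ages lay within their spread. MtnB averaged 7.96 ± 0.63, 8.25 ± 1.46 and 9.31 ± 0.99 in females and 7.98 ± 0.62, 7.99 ± 1.09 and 9.06 ± 1.08 in males, with old age highest and wide spreads that overlap throughout. MtnC averaged 11.48 ± 0.65, 11.75 ± 0.62 and 11.48 ± 0.69 in females and 12.35 ± 0.39, 12.96 ± 0.28 and 12.64 ± 0.34 in males, highest at middle age. MtnD climbed over all 3 ages, from 9.33 ± 1.08 through 10.50 ± 0.42 to 11.19 ± 0.73 in females and from 10.34 ± 0.68 through 11.35 ± 0.60 to 11.90 ± 0.62 in males.

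Across the 27 groups of a sex (4 arrays each), the extremes fell in different conditions for each gene. Female MtnA ranged from 13.07 ± 0.18 (1 day, larval 1SY, adult 2.5SY) to 14.89 ± 0.07 (old, larval 1SY, adult 0.25SY), and male MtnA from 13.84 ± 0.14 (1 day, 2.5SY at both stages) to 14.92 ± 0.04 (old, 0.25SY at both stages). MtnB had the widest range, from 6.11 ± 0.46 (middle-aged, 0.25SY at both stages) to 10.50 ± 0.75 (old, 2.5SY at both stages) in females and from 6.48 ± 1.03 (middle-aged, larval 2.5SY, adult 0.25SY) to 10.17 ± 0.25 (old, 1SY at both stages) in males. Female MtnD ranged from 8.11 ± 0.13 (1 day, 1SY at both stages) to 12.34 ± 0.18 (old, larval 1SY, adult 0.25SY), and male MtnD from 9.37 ± 0.60 (1 day, larval 1SY, adult 2.5SY) to 12.32 ± 0.15 (old, larval 2.5SY, adult 1SY). MtnC ran from 10.47 ± 0.58 (old, 1SY at both stages) to 12.56 ± 0.16 (middle-aged, larval 0.25SY, adult 2.5SY) in females and from 11.89 ± 0.23 (1 day, larval 1SY, adult 2.5SY) to 13.21 ± 0.18 (middle-aged, larval 2.5SY, adult 1SY) in males.

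Between the sexes, MtnC was higher in males by 0.87 at 1 day, 1.21 at middle age and 1.16 at old age, and MtnD by 1.02, 0.85 and 0.71. MtnA was higher in males by 0.53, 0.15 and 0.20 as deposited, and MtnB differed by 0.03, −0.26 and −0.25 with no call. Sex was called for 94.4% to 94.7% of all probe sets, and 28.6% to 30.2% were called higher in males. The study's methods normalized the sexes separately, and whether the deposited table was made that way is not given in the sources used here. Array medians were higher in males (median over arrays 7.30, against 6.79 in females), while the median of the male minus female differences of single probe sets was −0.26 to −0.27. At 1 day the array medians averaged 7.24 in males and 6.78 in females. The sizes of the 1-day differences as deposited thus depend on the normalization too. With every array centred on its own median, MtnA turned lower in males, by −0.33 at middle age and −0.34 at old age (limma adjusted p = 3.58e-22 and 1.46e-23), MtnB was called lower in males at 1 day, middle age and old age (−0.44, −0.74 and −0.80, limma adjusted p = 0.00456, 2.55e-06 and 4.57e-07), and the old-age difference of MtnD was no longer called (0.17, limma adjusted p = 0.187). MtnB also passed at middle age with repeated quantile normalization (limma adjusted p = 0.0441) and at old age without replicate 1 or replicate 2 (0.0365 and 0.031). The rise from 1 day to middle age was smaller in males for MtnA (by 0.38, limma adjusted p = 1.63e-16) and larger for MtnC (by 0.33, limma adjusted p = 0.00268), 2 of 4 members beside 54.9% of all probe sets.

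Of 35 further genes (MtnE among them) of metal handling and glutathione synthesis in 5 lists, 31 were measured. From larval 0.25SY to 1SY at 1 day, 3 were called lower in females and 1 in males, beside 19.5% and 3.44% of all probe sets. Another 8 and 4 were called higher, and the share of all probe sets called higher is not given here. The median differences of the 31 were 0.01 and 0.02, beside 0.02 and −0.01 over all probe sets. The transcript of MTF-1, the activator of the metallothioneins, differed by 0.05 in females (limma adjusted p = 0.39) and rose by 0.18 in males (limma adjusted p = 0.0131). From 0.25SY to 2.5SY it rose by 0.12 in females (limma adjusted p = 0.04) and by 0.16 in males (limma adjusted p = 0.0282). The activity of MTF-1 was not measured, and its part in the differences of the 4 members was not tested. Ctr1B, a copper importer, rose by 0.55 in females from larval 0.25SY to 2.5SY (limma adjusted p = 2.12e-06). Its values there were low, between 4.26 and 5.34, where the median of female array medians was 6.79. Tsf1, the iron-binding transferrin of the haemolymph, rose by 0.77 in males from 0.25SY to 1SY and by 0.60 to 2.5SY, and by 0.54 from adult 0.25SY to 2.5SY.

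At the later ages 10 of the 31 were called higher and 11 lower from adult 0.25SY to 1SY in females, 7 and 8 from 1SY to 2.5SY, and 4 and 2 from 0.25SY to either richer diet in males. Of all probe sets in females, 27.8% were called higher and 25.0% lower from 0.25SY to 1SY, and 15.5% higher from 1SY to 2.5SY. The share called lower from 1SY to 2.5SY is not given here, and the median difference there was −0.01 for the 31 and for all probe sets. In males 4.37% were called higher and 3.91% lower from 0.25SY to 1SY, and 7.14% and 4.48% to 2.5SY. MTF-1 rose by 0.12 from 1SY to 2.5SY in females (limma adjusted p = 0.00152) and by 0.20 from 0.25SY to 1SY in males (limma adjusted p = 0.00446). Zip89B, a member of the zinc importer family, fell by 0.59 and 0.70 from adult 0.25SY to 1SY and 2.5SY in females. From middle to old age 11 were called higher and 5 lower in females and 9 and 3 in males, led by Tsf1 in females (1.08) and Zip89B in males (0.66). Of all probe sets, 24.2% were called higher and 21.1% lower in females, and 22.7% and 18.5% in males. From 1 day to middle age 16 were called higher and 8 lower in females and 21 and 8 in males. Of all probe sets, 25.7% were called higher in females and 37.6% in males, and the shares called lower are not given here. The median differences of the 31 were 0.06 and 0.23, beside −0.03 and −0.003 over all probe sets. In this step MTF-1 rose by 0.27 and 0.76 and Tsf1 by 2.28 and 1.53, while Zip42C.2 fell by 1.19 and 0.89 and Zip89B rose by 0.51 and 0.56. In males Zip48C (0.67) and Zip102B (0.60) also rose, and the ferritin gene Fer3HCH fell by 0.90, the copper importer gene Ctr1C by 0.59 and the zinc transporter genes ZnT33D and ZnT77C by 0.62 and 0.63.

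Between the sexes 10, 13 and 14 of the 31 were called higher in males at 1 day, middle age and old age and 16, 14 and 15 lower. Of all probe sets, 30.2%, 28.6% and 30.0% were called higher in males, and 94.4% to 94.7% in either direction. These differences are as deposited and depend on the normalization, as for the members. They were not refitted with arrays centred on their medians or without the doubted old male arrays. In old males Fer3HCH reached down to 4.86 (mean 8.08) and Ctr1C to 4.71 (mean 6.91). Of the 31, those higher by at least 0.5 were Fer3HCH (4.21, 3.39 and 3.08), Ctr1C (2.49, 2.16 and 1.91), ZnT33D (2.41, 1.81 and 1.68), Zip71B (0.51, 0.51 and 0.62), Tsf1 (1.99 and 1.24 at the first 2 ages) and Zip99C (0.84 at 1 day). MTF-1 was lower in males, by −0.63, −0.14 and −0.22. The others lower in males were foi (−1.70, −1.42 and −1.30), Zip88E (−1.31, −1.13 and −1.15), Ccs (−1.21, −0.80 and −1.02), ZnT86D (−1.11, −0.78 and −0.67), ZnT35C (−1.09, −0.77 and −0.57), Zip42C.2 (−1.08, −0.79 and −0.59), Ctr1A (−0.92, −0.59 and −0.61) and Scox (−0.88, −0.64 and −0.61), with Gclm at middle age (−0.50) and Zip42C.1 at old age (−0.51).

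Over the 27 group means of a sex, which share diets and ages, MtnA and MtnD ran most closely together (Pearson r = 0.88 in females and 0.83 in males, as a description). MtnA and MtnB ran least closely in females (0.35), and MtnB and MtnC in males (0.19). The genes most like MtnA over the same means were CG3168, cry, pst, CG3906 and BomS4 in females (r = 0.92 to 0.93) and Galphas, sbb, hfp, cass and nonA in males (0.90 to 0.91). For MtnD they were CG13086, CG42846, CG17549, Prat2 and Miox in females (0.89 to 0.95) and CG9743, CG6041, CG17264, CG10939 and Tmep in males (0.88 to 0.90). MtnB was followed by Cyp4d8, MFS15, eIF3g1, Mondo and Nepl6 in females and by CG13314, Ir21a, CG31036, scf and CG33111 in males, and MtnC by CG34217, CG3301, CG5532, CG10505 and wgn in females and by AstC, Coop, CheA87a, CG18536 and alphaTry in males. No gene was shared between the sexes in these sets of 5. The Malpighian tubule list followed MtnA at r = 0.83 in both sexes and the fat body list ran against it at −0.78 in females and −0.90 in males. Flight muscle genes ran against MtnA at −0.72 and −0.83 and the ovary and yolk list at −0.70 in females, over means that share the same age and diet groups.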

How the data were processed

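RNA of 216 pools of whole virgin flies was hybridized to Affymetrix Drosophila 2.0 arrays. The deposited table holds log2 values made by the authors with RMA (named in the submitters' processing notes), 1 per probe set. The study's methods left out some arrays of low quality at the later ages without naming them and normalized the sexes separately. Whether the deposited table was made so is not given in the sources used here, and all 216 arrays were used. Of 18952 probe sets, 183 controls were left out, and 0 values were missing. Of the 18769 tested, 13647 are paired by the platform annotation with 1 gene symbol, 402 with several and 4720 with none.

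Cell-means models were fitted with limma 3.58.1 in R 4.3.3 over all 18769 probe sets, and p-values were adjusted by Benjamini-Hochberg: 72 arrays per sex for the later ages (the terms of the study's methods, with no array left out), 36 per sex for 1-day-old flies, 108 per sex across ages and 216 for sex. Diet contrasts average over the other diet. Arrays carry only intensity, so precision rests on the number of arrays. The fits were tested on simulated data.

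Every member was named with its values. Of the pathway lists, MTF-1 was named, with any gene past the threshold and a difference of 0.5 or more. Likeness was the 5 highest Pearson r over 27 group means. The members and lists were chosen with earlier results of these data known, so the p-values describe size against replicate spread and are no independent support.

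Replicate numbers of the labels did not pair arrays: deviations from the group mean had a mean correlation of −0.0006 between arrays of the same number and 0.0003 between different numbers, and no 2 arrays were identical. Alternatives were unmoderated ANOVA, probe sets with a mean of at least 5, repeated quantile normalization, centring on array medians, array weights, a replicate block, the running sample numbers in blocks of 24, leaving out each replicate number or the 3 doubted arrays, and a fit of all 3 ages. The unmoderated ANOVA, the filter on the mean, the blocks of 24 and the fit of all 3 ages were run for the later ages only. The doubted arrays were left out for later-age males and for sex. Leaving out the 6 arrays of lowest weight, or either of 2 single female arrays, was chosen after seeing the data.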

Additional observations from a re-analysis of the deposited data

Results flagged for a closer look

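Of 216 sets of 4 arrays (54 groups and 4 genes), 19 had an array far from the other 3 by Dixon's criterion, and chance gives about 1 in 20. Female 1-day-old larval 2.5SY adult 2.5SY replicate 1 stood high for 3 genes, with MtnB at 8.60 (others 7.22 to 7.43), MtnC at 11.16 (10.83 to 10.88) and MtnD at 10.67 (8.34 to 8.57). In the other 1-day-old females, MtnD lay at 7.29 in larval 1SY adult 2.5SY replicate 1 (9.19 to 9.40), MtnB at 7.96 in larval 0.25SY adult 1SY replicate 3 (8.71 to 8.83) and MtnC at 12.22 in larval and adult 0.25SY replicate 1 (12.52 to 12.57). In 1-day-old males, MtnB lay at 8.33 in larval and adult 1SY replicate 4 (7.32 to 7.47), MtnA at 14.12 in larval 1SY adult 0.25SY replicate 4 (14.06 to 14.07) and MtnA at 14.62 in larval 0.25SY adult 1SY replicate 3 (14.46 to 14.48).

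At middle age, MtnD lay at 11.30 in female larval 1SY adult 2.5SY replicate 4 (10.24 to 10.41) and MtnB at 10.63 in male larval 2.5SY adult 1SY replicate 1 (9.22 to 9.45). In old females, MtnD lay at 10.34 in larval 1SY adult 2.5SY replicate 1 (10.95 to 11.06), MtnB at 7.69 in larval and adult 0.25SY replicate 2 (8.51 to 8.66) and MtnA at 14.17 in larval 2.5SY adult 1SY replicate 3 (14.39 to 14.42). In old males, MtnD lay at 11.21 in larval and adult 1SY replicate 2 (12.08 to 12.10) and at 12.41 in larval 1SY adult 2.5SY replicate 1 (11.58 to 11.69). MtnB lay at 8.62 in larval 1SY adult 2.5SY replicate 3 (9.63 to 9.74) and at 8.31 in larval 2.5SY adult 1SY replicate 4 (9.46 to 9.57). MtnA lay at 14.21 in larval 0.25SY adult 1SY replicate 3 (14.78 to 14.79), the array with the profile of 1-day-old males.

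A further 24 effects differed between groups when the difference itself was tested in limma, and only called effects are listed. Diet effects were called over all diets and are given at the diet contrast with the largest absolute difference, which need not be called itself. Shares of all probe sets stand in the results above. They are not given for adult diet by sex at 1 day, nor for adult diet from 1 day to middle age in females. The male minus female difference of the adult diet effect at 1 day was 0.26 for MtnA. At middle age it was 0.21 for MtnA, −2.14 for MtnB, −1.47 for MtnC and −1.05 for MtnD, and at old age 0.32, −1.19, −1.28 and 1.12. The contrast of −1.05 for MtnD was not called itself (limma adjusted p = 0.0597). That of the larval effect at 1 day was 0.41 for MtnA, 0.64 for MtnC and 1.29 for MtnD, and that of the step from 1 day to middle age −0.38 for MtnA and 0.33 for MtnC. In females, the adult diet effect shifted from middle to old age by −1.25 for MtnB and −0.93 for MtnD, and from 1 day to middle age by 0.46 for MtnA, 2.84 for MtnB and 1.39 for MtnC. The larval effect shifted from 1 day to middle age by 1.02, 1.56, 0.97 and 1.86 for MtnA, MtnB, MtnC and MtnD in females and by 0.59 for MtnA in males.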

How the results depend on the processing

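Alternative values for single genes were counted only for differences past the threshold in the main fit. Calls gained under an alternative alone are thus not among them. Of these 591 values, 565 kept direction and side of the threshold, 24 kept direction and missed it, and 2 reversed. The 2 were MtnA between the sexes at middle age (−0.33) and old age (−0.34) with arrays centred on their medians. Of 546 alternative counts of members called, 515 stayed within 1.5 times. The replicate block, whose numbers did not pair the arrays, changed no call (MtnB in females from adult 0.25SY to 2.5SY 2.42, limma adjusted p = 1.11e-15 with the block). In later-age females, adult diet by age went from 2 members to 1 with blocks of the running sample numbers and to between 0 and 2 when a replicate was left out. In later-age males, 1SY to 2.5SY in adults went from 0 to 1 (MtnD), and larval 0.25SY to 2.5SY and the larval F-test from 0 to 1 (MtnA), with array weights, without the 3 doubted arrays and without the 6 of lowest weight. The adult F-test gained MtnD in the same settings. Larval 0.25SY to 1SY went from 0 to 1 with weights, and adult 0.25SY to 2.5SY from 2 to 1 with centring. From 1 day to middle age in males, weights raised the larval F-test from 1 to 4 and the adult F-test from 0 to 1, and the latter lay between 0 and 1 when a replicate was left out. Adult diet by sex at middle age lay between 2 and 4. In 1-day-old females, adult 0.25SY to 2.5SY, larval 1SY to 2.5SY and the adult F-test lay between 0 and 1, and without larval and adult 2.5SY replicate 1 the adult step from 1SY to 2.5SY went from 0 to 1 (MtnA). In 1-day-old males, larval 1SY to 2.5SY lay between 0 and 1. Except where a setting leaves out arrays, the cause was not tested. Whether the nearness of MtnA to the array maximum compressed its differences was not tested, and the number of arrays limits precision.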
